A study of Mus musculus with 4 samples.

Results

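Subset s4 is 1 of 10 subsets, s0 to s9, into which the authors' second clustering divided part of their CD4 T cells from mesenteric lymph nodes. Its members are the cells that passed the authors' filter and carry s4 in the deposited cell table. They number 884 of 16948 analysed cells, and another 8157 cells carry some other value of the second clustering. The labels give s4 no cell type name. It is called s4 here and is described by its leading genes, which were Ccr2, Fgl2, Gzmb and Lag3.

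The study compared male mice of 2 strains, Foxp3CNS1- and Foxp3GFP, that had been colonized with fecal microbiota of specific-pathogen-free mice or stayed germ-free. Foxp3CNS1- mice lack CNS1, an enhancer within an intron of Foxp3 that helps naive CD4 T cells outside the thymus turn into regulatory T (Treg) cells. The 4 groups were colonized Foxp3CNS1-, germ-free Foxp3CNS1-, colonized Foxp3GFP and germ-free Foxp3GFP, sampled 9 days after colonization, with 1 library each from the pooled nodes of 3 mice. Each library mixed sorted GFP-positive and GFP-negative CD4 T cells in equal parts and was made with 10x 3′ chemistry, so the sort can set shares of cells. The sources used here do not state the age or genetic background of the mice. With 1 library per group no difference between groups has a replicate or a test. Intervals are exact 95% intervals and cover counting error only, not the spread between mice, libraries or cells.

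Treg cells restrain immune responses and depend on the transcription factor Foxp3. In lymph nodes that drain the gut, some arise in the thymus and others from naive CD4 T cells that meet food or microbial antigen. Activated Treg cells exchange the lymph node homing receptor Ccr7 for receptors of inflamed tissue such as Ccr2 and Cxcr3. They also make molecules that can curb other cells, among them the cytokine Il10, the coinhibitory receptors Ctla4 and Lag3, the secreted protein Fgl2 and the protease granzyme B (Gzmb).

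The promoters of Gzmb and Fgl2 are printed because these genes led s4. Ccr2, which had the highest mean ratio, had a window that held none of the motifs below and is not printed. Those of Ifit1, Isg15 and Ifi206 are printed because interferon-stimulated genes were higher in s4 cells of the colonized libraries. They were picked among measured list genes whose window held the motif marked in them, so its presence there was fixed in advance. Each printed promoter is a window of 300 bases around the gene's start, from RefSeq on GRCm38.p6. It is read 5′ to 3′ on the gene's own strand. In the first pair capitals mark TGANTCA, the core that AP-1 factors bind, and TGTGGT, the core that RUNX factors bind. In the other windows capitals mark GAAANNGAAA, the core of the interferon-stimulated response element. All motifs were searched on both strands.
Gzmb, chr14:56262285-56262584, minus strand: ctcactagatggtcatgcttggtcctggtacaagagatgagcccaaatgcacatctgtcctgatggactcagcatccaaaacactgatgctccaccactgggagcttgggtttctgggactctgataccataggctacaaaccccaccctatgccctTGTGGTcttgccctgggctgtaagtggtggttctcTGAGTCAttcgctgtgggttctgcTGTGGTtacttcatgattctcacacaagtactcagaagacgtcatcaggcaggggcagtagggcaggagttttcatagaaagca
Fgl2, chr5:21372423-21372722, plus strand: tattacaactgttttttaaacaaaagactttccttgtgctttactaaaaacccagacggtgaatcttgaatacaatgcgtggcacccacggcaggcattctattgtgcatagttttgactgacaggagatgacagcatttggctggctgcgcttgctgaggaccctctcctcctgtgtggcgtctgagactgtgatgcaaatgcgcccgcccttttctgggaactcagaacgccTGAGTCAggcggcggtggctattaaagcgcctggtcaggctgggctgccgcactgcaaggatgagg
Ifit1, chr19:34640639-34640938, plus strand: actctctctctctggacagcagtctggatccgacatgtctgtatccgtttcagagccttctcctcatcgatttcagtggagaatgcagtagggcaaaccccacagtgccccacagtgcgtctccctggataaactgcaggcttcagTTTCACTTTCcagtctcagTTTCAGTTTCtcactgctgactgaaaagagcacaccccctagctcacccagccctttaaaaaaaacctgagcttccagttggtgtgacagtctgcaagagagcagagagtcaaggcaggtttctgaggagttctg
Isg15, chr4:156200769-156201068, minus strand: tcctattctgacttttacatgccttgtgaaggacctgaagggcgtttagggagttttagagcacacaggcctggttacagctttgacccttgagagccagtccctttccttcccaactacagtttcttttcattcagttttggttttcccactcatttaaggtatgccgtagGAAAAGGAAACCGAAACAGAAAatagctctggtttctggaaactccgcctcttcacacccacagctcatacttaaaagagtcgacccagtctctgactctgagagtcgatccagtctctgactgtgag
Ifi206, chr1:173491269-173491568, minus strand: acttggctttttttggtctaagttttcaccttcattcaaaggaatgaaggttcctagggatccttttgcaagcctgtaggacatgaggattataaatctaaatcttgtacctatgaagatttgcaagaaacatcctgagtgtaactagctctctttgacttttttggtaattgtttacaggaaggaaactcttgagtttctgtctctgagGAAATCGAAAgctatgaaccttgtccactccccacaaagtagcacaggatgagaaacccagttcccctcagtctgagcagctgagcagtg

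The Gzmb window held 1 TGANTCA and 2 TGTGGT, and the Fgl2 window held 1 TGANTCA. The Ifit1 window held 2 copies of GAAANNGAAA, the Isg15 window 3 overlapping copies and the Ifi206 window 1. Over all 32851 windows of the same length, 7.81% held TGANTCA, 16.8% held TGTGGT and 3.44% held GAAANNGAAA. Of the 20 genes that led s4, 15 had a window. TGANTCA was found in 3 of them (Fgl2, Gzmb and Glrx), TGTGGT in 5 (Gzmb, Lgmn, Cxcr3, Serpina3g and S100a6) and GAAANNGAAA in 0. Of 45 listed interferon-stimulated genes, 35 had a window and 21 of those held GAAANNGAAA. A match describes these letters and is not evidence of binding.

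Subset s4 had 417 cells and 1130909 UMIs (unique molecular identifiers, each a counted transcript) in colonized Foxp3CNS1-, and 181 cells and 409186 UMIs in germ-free Foxp3CNS1-. It had 186 cells and 559255 UMIs in colonized Foxp3GFP, and 100 cells and 231591 UMIs in germ-free Foxp3GFP. Median UMIs per s4 cell were 2424 in colonized and 1828 in germ-free Foxp3CNS1-, and 2654 in colonized and 2045 in germ-free Foxp3GFP. Depth therefore moved with colonization, and shares of cells are also given after thinning each cell to 1500 UMIs. The other cells of the second clustering had medians of 2776.5, 2160, 2841.5 and 2335.5 in the same order of libraries. Ribosomal protein genes took 26.7% to 29.2% of s4 UMIs per library and 33.8% to 35.1% of UMIs in the other cells. Between libraries, 40 cell barcodes of the second clustering were shared, and 0 of these were in s4.

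As a share of the cells in the second clustering, s4 made up 11.8% (10.8 to 12.9) in colonized and 9.62% (8.32 to 11) in germ-free Foxp3CNS1-. It made up 9.06% (7.85 to 10.4) in colonized and 6.36% (5.21 to 7.68) in germ-free Foxp3GFP. These are descriptions only, since genes that define s4, such as Gzmb and Ccr2, themselves differed between the libraries. In the authors' first clustering 627 s4 cells (70.9%) were in cluster 0, 214 (24.2%) in cluster 5, 42 (4.75%) in cluster 3 and 1 in cluster 8. Cluster 5 held 25.4% of s4 cells in colonized and 14.9% in germ-free Foxp3CNS1-, and 31.7% in colonized and 22% in germ-free Foxp3GFP.

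Markers of T cells were present, and lists of markers of other cells summed to lower levels. The 10 T cell identity genes summed to 11704 to 14038 CPM (counts scaled to a common total, here all s4 UMIs of a library). In s4 the B cell surface gene Ms4a1 had at most 2.65 CPM in any library. The B cell list of 13 genes, 2 of them at 0, summed to 1910 to 2047 CPM in s4 and 1144 to 1294 CPM in the other cells. Most of that sum was Ighm, the immunoglobulin mu constant gene, with a mean of 1693 CPM in s4 and 926 CPM in the other cells. The plasma cell list summed to 88.0 to 151 CPM in s4 (1 of 8 genes at 0), and the myeloid and dendritic list to 164 to 250.4 CPM (1 of 7 at 0), most of it Cst3 with a mean of 196. The CD8 T and NK list summed to 205 to 358 CPM (0 of 7 at 0), above the other cells of the same library in all 4, which had 161 to 286 CPM. The gamma-delta T and ILC list to 19.6 to 56.6 CPM (1 of 7 at 0), and the stromal, erythroid and epithelial list to 39.3 to 53.8 CPM (1 of 5 at 0). The part of these cell types in the results was not tested.

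Against the other cells of the second clustering, s4 was marked by tissue-homing and suppressive genes. The values that follow describe how the authors' clustering divided these cells and are no test, because the clustering read the same genes. For each gene the log2 ratio of CPM was taken within each library, with 10 CPM added to both sides, and averaged over the 4 libraries. Of 3556 genes with a UMI in at least 10% of s4 or of other cells, 22 (0.619%) were at least 2-fold higher in s4 and 7 (0.197%) at least 2-fold lower. Another view is that 1019 genes (28.7%) were higher in s4 in all 4 libraries and 515 (14.5%) lower in all 4. The median over the 3556 genes was 0.07 and 61.8% of them were above 0. The counts of list genes higher or lower in s4 take every list gene in the data, also genes below the 10% share of cells. The 61.8% is therefore only a rough guide to them, since it is not over the same kind of gene. All 20 leading genes were higher in s4 in all 4 libraries and all 10 lowest genes lower in all 4.

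**Figure D1:**
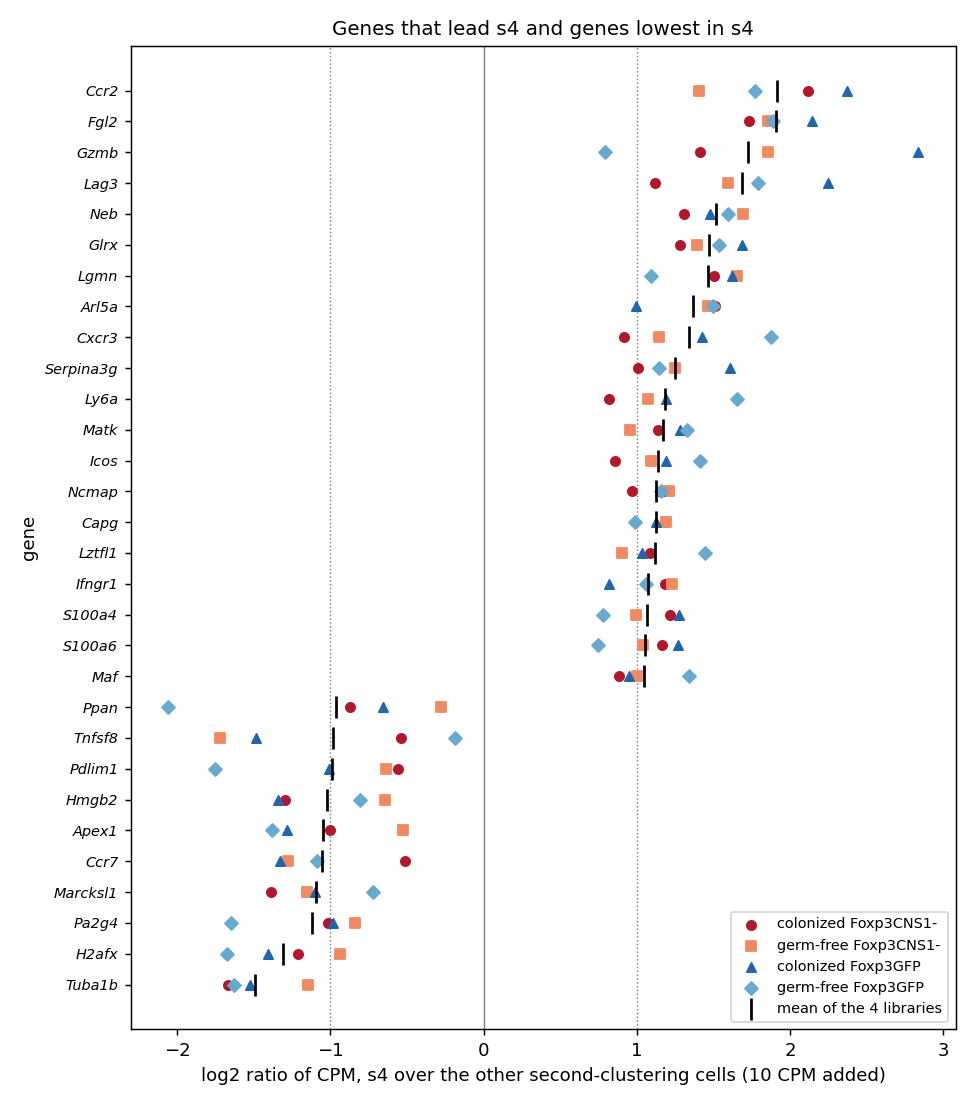
Mean within-library log2 ratio of s4 over the other second-clustering cells (horizontal axis, 10 CPM added) for the 20 highest and 10 lowest genes, with a point for each of the 4 libraries. Ccr2, Fgl2, Gzmb and Lag3 have the highest means, from 1.92 to 1.69, and Gzmb has the widest range over libraries, from 0.79 to 2.84.

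Ccr2, a receptor for the monocyte chemoattractant chemokine CCL2, had the highest mean ratio, 1.92. In s4 it had 178 CPM in colonized and 26.9 in germ-free Foxp3CNS1-, and 238 in colonized and 43.2 in germ-free Foxp3GFP. In the other cells Ccr2 had 33.2, 3.93, 37.9 and 5.58 CPM in the same order. Within each library s4 was several times above the other cells, while both kinds of cell were higher in the colonized libraries. Fgl2, a secreted fibrinogen-like protein through which Treg cells can suppress, had 95.5 CPM in colonized and 119.8 in germ-free Foxp3CNS1- s4 cells, and 159 in colonized and 129.5 in germ-free Foxp3GFP s4 cells. In the other cells it had 21.8 to 28.2 CPM, a mean ratio of 1.91. Its levels in s4 did not follow colonization.

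Gzmb, a serine protease of cytotoxic granules that activated Treg cells can also carry, had 258 CPM in colonized and 34.2 in germ-free Foxp3CNS1- s4 cells, and 645.5 in colonized and 13.0 in germ-free Foxp3GFP s4 cells. The other cells had 90.5, 2.19, 81.8 and 3.26 CPM in the same order, a mean ratio of 1.73. The germ-free Foxp3GFP value rests on 3 UMIs. Lag3, a coinhibitory receptor that binds MHC class II, had 337 CPM in colonized and 455 in germ-free Foxp3CNS1- s4 cells, and 717 in colonized and 570.0 in germ-free Foxp3GFP s4 cells, against 143 to 158 CPM in the other cells. The mean ratio of Lag3 was 1.69, and s4 was above the other cells in each library.

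The other leading genes spanned cytoskeletal, proteolytic and signalling roles. Neb (nebulin, known from muscle thin filaments) had 46.0 to 61.1 CPM in s4 and a mean ratio of 1.52. Glrx, a glutaredoxin that reduces protein disulfides, had 354 to 579 CPM (1.47), and Lgmn, the lysosomal protease legumain, had 30.2 to 94.8 CPM (1.47). Cxcr3, a receptor for interferon-induced chemokines, had 124 to 200.3 CPM in s4 against 37.4 to 68.1 CPM in the other cells (1.34). The costimulatory receptor gene Icos had 371 to 488 CPM (1.14), the actin-capping protein gene Capg 674 to 940 CPM (1.12) and the transcription factor gene Maf 272 to 466 CPM (1.05). Arl5a (1.37), Serpina3g (1.25), Ly6a (1.18), Matk (1.17), Ncmap (1.12), Lztfl1 (1.12), Ifngr1 (1.07), S100a4 (1.07) and S100a6 (1.06) completed the 20. Of these, Ly6a, which encodes the surface protein Sca-1, and the calcium-binding S100a4 and S100a6 were also higher in the colonized libraries.

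The genes lowest in s4 included several of cell division and Ccr7. Tuba1b, an alpha tubulin, had 112 to 179 CPM in s4 against 367 to 533 CPM in the other cells, a mean ratio of -1.49. H2afx, a histone variant, was at -1.31, Pa2g4 at -1.12, Marcksl1 at -1.09, Apex1 at -1.05 and Hmgb2 at -1.02. Ccr7, the receptor that guides T cells into lymph nodes, had 104 CPM in colonized and 56.2 in germ-free Foxp3CNS1- s4 cells, and 59.0 in colonized and 69.1 in germ-free Foxp3GFP s4 cells. In the other cells Ccr7 had 151 to 163 CPM, a mean ratio of -1.05. Pdlim1 (-0.99), Tnfsf8 (-0.98) and Ppan (-0.97) were just short of 2-fold. Subsets s6 and s8 had the highest means of Tuba1b, 1007 and 1961 CPM, beside 153 CPM in s4, the lowest of the 9 subsets compared. Without s6 and s8 Tuba1b was at -0.41, H2afx at -0.51, Pa2g4 at -0.49 and Hmgb2 at -0.04, an alternative chosen after seeing the data.

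Genes of the Treg core were higher in s4 than in all other cells pooled, by less than the leading genes, and mostly lower than in s0. Foxp3 itself had 211 CPM in colonized and 147 in germ-free Foxp3CNS1- s4 cells, and 200.3 in colonized and 212 in germ-free Foxp3GFP s4 cells. In the other cells it had 106, 121, 132 and 125 CPM in the same order, a mean ratio of 0.62. The deleted intronic element is not part of the Foxp3 transcript that 3′ tags count, so these levels do not show the deletion itself. Whether the genotype changed them was not tested. Of 19 core genes measured, 17 were higher and 2 lower, 12 were higher in all 4 libraries, and the median ratio was 0.36. Ctla4, which removes costimulatory ligands from antigen-presenting cells, had 248 to 358 CPM in s4 against 136 to 158 CPM (1.03). Tnfrsf18 (GITR) had 695 to 769 CPM against 399 to 450 CPM (0.80), and Ikzf2 (Helios) had 674 to 885 CPM against 395 to 584 CPM (0.69). Nrp1, frequent on Treg cells made in the thymus, was at -0.03. The high-affinity IL-2 receptor chain gene Il2ra was at 0.36 and higher in 3 of 4 libraries. Against s0 alone 3 of 19 core genes were higher (median -0.26), where 51.5% of genes passing the 10% share were above 0. Against s1 and s2 14 and 15 of 19 were higher (0.45 and 0.33). Nrp1 had a mean of 60.5 CPM in s4 and 80.1 to 84.0 CPM in s0 to s3. Il2ra had 179 CPM in s4, 197 in s0, 178 in s1 and 172 in s2.

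A Foxp3 UMI was found in 35.3% of s4 cells in colonized and 24.9% in germ-free Foxp3CNS1-, and in 42.5% in colonized and 38.0% in germ-free Foxp3GFP. Thinned to 1500 UMIs per cell, which left out 41, 38, 17 and 13 s4 cells in the same order of libraries, the shares were 23.9%, 20.98%, 28.99% and 27.6%. The first clustering's clusters 1 and 2, where the naive T cell gene Ccr7 had 344 to 417 CPM, had a Foxp3 UMI in 3.18%, 6.23%, 5.75% and 7.02% of cells at median depths of 2830, 2494, 2856 and 2601 UMIs. The share of s4 cells with a Foxp3 UMI was thus above that background in each library, although s4 cells were shallower. Ccr2 UMIs were in 18.9%, 3.87%, 24.7% and 9% of s4 cells, and in at most 0.37% of cells of clusters 1 and 2. Gzmb UMIs were in 13.9%, 3.87%, 20.97% and 3% of s4 cells, and in at most 0.72% of cells of clusters 1 and 2. Thinned, the Gzmb shares of s4 were 12.5%, 4.90%, 17.2% and 2.30%.

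Lists of effector and suppressive genes were higher in s4 than in all other cells pooled, but not all of them against s0. Of 13 suppressive effector genes 11 were higher, 8 of them in all 4 libraries and 5 by at least 2-fold, with a median ratio of 0.72. Il10 had 45.1 CPM in colonized and 66.0 in germ-free Foxp3CNS1- s4 cells, and 44.7 in colonized and 38.9 in germ-free Foxp3GFP s4 cells, against 6.05 to 7.02 CPM in the other cells (1.82). Il10 UMIs were in few cells, 5% to 7.53% per library. The ectonucleotidases Entpd1 and Nt5e, which turn extracellular ATP into adenosine, were at 0.75 and 0.72, and Tgfb1 was at -0.04. Of 21 effector Treg genes 18 were higher, with a median of 0.64, among them Prdm1 (1.19), which encodes Blimp-1, and Klrg1 (1.07). All 12 genes associated with induced Treg cells were higher, 10 of them in all 4 libraries, with a median of 0.87. That list shares Gzmb, Lag3, Il10, Prdm1 and Maf with the other lists. Against s0 alone 5 of 13 suppressive effector genes were higher (-0.03), 11 of 21 effector Treg genes (0.04) and 9 of 12 induced Treg genes (0.25). Of genes passing the 10% share of cells, 51.5% were above 0 there.

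Against all other cells pooled, effector and migration genes were mostly higher in s4 and genes of resting cells mostly lower. Of 21 effector and migration genes 18 were higher in s4, with a median of 0.50. The chemokine receptors Cxcr6 (0.92) and Ccr9 (0.89), the last a receptor for gut homing, were higher in all 4 libraries. The integrin gene Itgae, whose product binds epithelial E-cadherin, was at 0.80. Itgae and Klrg1 were not highest in s4, with means of 146 and 36.1 CPM there and 186 and 39.1 CPM in s0. Resting Treg and central genes were lower, with 14 of 15 below 0 and a median of -0.41. Tcf7 was at -0.88, Klf2 at -0.47 and S1pr1, the receptor that guides T cells out of lymph nodes, at -0.28. Against s0 alone the resting list turned, with 11 of 15 higher in s4 (0.29). Against s1 and s2 it had 0 and 2 of 15 higher (-0.92 and -0.58). Effector and migration genes were higher than in s0 for 17 of 21 (0.47).

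Proliferation genes were lower in s4 than in all other cells pooled, but little different from the subsets most like it, and the helper cell lists had no common direction. All 21 proliferation genes were lower in s4 in all 4 libraries, 15 by at least 2-fold, with a median of -1.49. Only 8 of the 21 passed the share of cells required for the earlier count of genes at least 2-fold lower. The 15 therefore include genes outside that count. Pclaf, a partner of the replication clamp, had at most 4.42 CPM in any s4 library and was at -3.34. Without s6 and s8, an alternative chosen after seeing the data, 5 of the 21 were higher in s4 and the median was -0.17. Against s0 alone 9 were higher (-0.04), and against s1 and s2 12 each (0.09 and 0.02). Th17 genes were split, with 6 of 12 higher and a median of -0.06. Il17a had 25.6 CPM in colonized Foxp3CNS1- and 28.6 CPM in colonized Foxp3GFP s4 cells and was at 0 UMIs in both germ-free libraries, a count that allows up to 3. The Th1 and cytotoxic list had 9 of 17 genes higher and a median of 0.03, with Tbx21 at no more than 4.32 CPM. All 18 genes of MHC class I and its loading were higher (median 0.31), B2m at 0.52 among them, and so were 13 of 14 GBP and IRG GTPases (0.50) and 33 of 44 interferon-stimulated genes (0.19). Without s6 and s8, 25 of those 44 were higher (0.06), where 70.2% of all genes were above 0. Against s0 alone 7 of the 44 were higher (-0.27), 4 of 14 GTPases (-0.14) and 3 of 18 MHC class I genes (-0.12), where 51.5% of all genes were above 0.

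**Figure D2:**
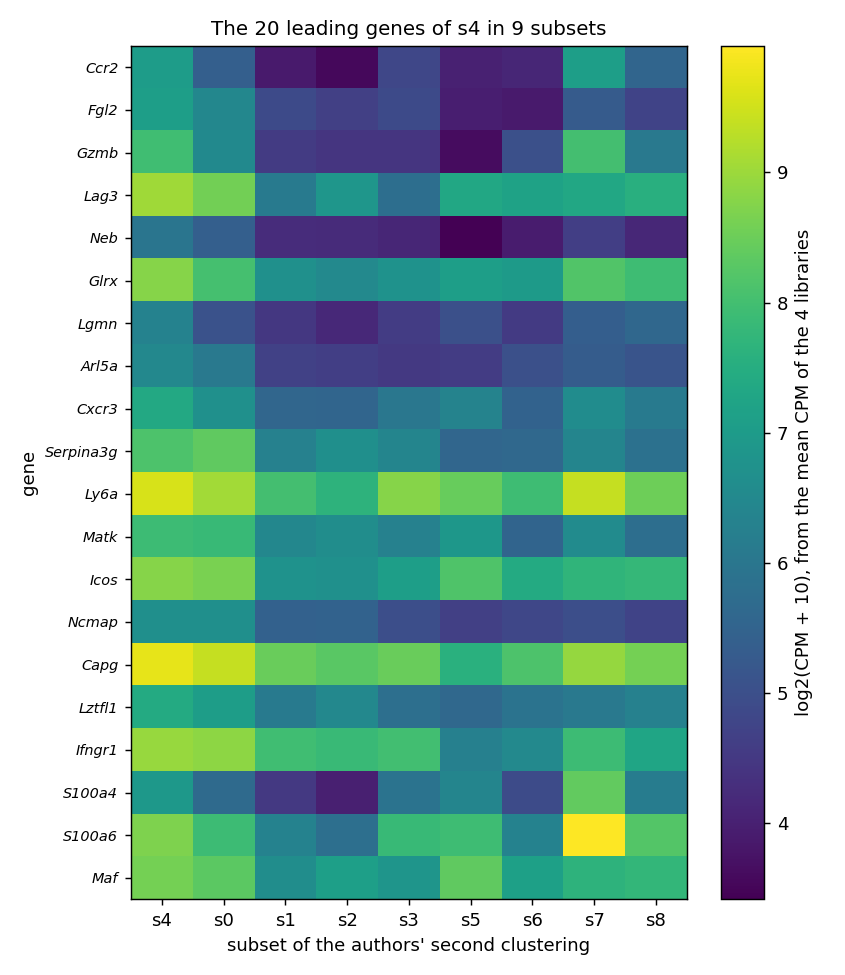
Mean CPM over the 4 libraries of the 20 genes that led s4 (rows) in s4 and the other subsets with enough cells (columns), colored by log2 of the mean CPM with 10 CPM added. Of the 20 genes 14 have their highest mean in s4, and the other 6 are second there, behind s7 or s0.

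Subset s0 was the most similar to s4. Across 6510 genes the correlation of mean log2 levels was 0.988 with s0, 0.975 with s1 and 0.974 with s2, and lowest with s8 at 0.846. These are correlations across genes, which are not replicates. Of the 20 leading genes 14 had their highest mean in s4, and 6 were second. Ccr2 had a mean of 121 CPM in s4 and 127 in s7, and Gzmb 238 in s4 and 247 in s7. S100a4 had 111 in s4 and 325 in s7, and S100a6 had 408 in s4 and 994 in s7. Ncmap and Serpina3g were second to s0. The leading genes were above s0 in all 4 libraries for 14 of 20, and above s1 and s2 for all 20.

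Set against s0 alone, s4 was higher in Ccr2 and other genes that led it and lower in Cd83. Ccr2 was higher by a mean log2 ratio of 1.59, Lgmn by 1.31, Gzmb by 1.13 (-0.14 to 1.97 over libraries), S100a4 by 1.11, Klf2 by 0.99 and Crip1 by 0.96. Cd83, a surface protein of activated lymphocytes, was at -1.18. The TNF receptor family genes Tnfrsf9 (4-1BB) and Tnfrsf4 (OX40) were at -1.09 and -0.85. Of 11 genes on the list of that family 3 were higher in s4 than in s0, with a median of -0.13, and 9 were higher in s4 than in all other cells, with 0.20. Foxp3 had a mean of 192 CPM in s4 and 230 in s0, and Ikzf2 had 756 in s4 and 942 in s0. Against s1, s4 was higher in Lag3 (2.93) and Ccr2 (2.77) and lower in Ccr7 (-1.51) and Ly6c1 (-1.48).

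The cells of s4 differed among themselves along the same genes. Those placed in cluster 5 by the first clustering had a mean of 864 CPM of Lag3, against 334 in those of cluster 0, and 238 against 60.0 CPM of Ccr2. Il10 had 94.4 CPM in cluster 5 cells and 30.5 in cluster 0 cells, and S100a4 had 240 and 53.7. Each of these was higher in cluster 5 cells in all 4 libraries. Ccr7 (mean log2 ratio -1.79), Nrp1 (-1.61), Klf2 (-1.52), Bcl2 (-1.39) and Id3 (-1.38) were lower in cluster 5 cells in all 4. Of 15 resting Treg and central genes 14 were lower there, with a median of -1.08, and all 12 induced Treg genes were higher (0.79). The Treg core was split, 9 higher and 10 lower, and Ikzf2 was close to even at 0.03. These cells, too, were divided by a clustering on their genes, so the values are descriptions.

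The first comparison between libraries asked how the levels in s4 cells of colonized mice compare with those of germ-free mice. Gzmb, Ccr2, Plac8, Ly6a and a set of interferon-stimulated genes were higher and Cd83 was lower in s4 cells of the colonized library, in both strains. A ratio was computed for each gene with at least 30 UMIs over both libraries, and a gene past 2-fold is described, not tested. In Foxp3CNS1- 122 of 5250 genes (2.32%) were at least 2-fold higher and 92 (1.75%) at least 2-fold lower, with 47.4% of genes above a ratio of 1. In Foxp3GFP 111 of 3425 genes (3.24%) were at least 2-fold higher and 94 (2.74%) at least 2-fold lower, with 48.1% above a ratio of 1. Thus 54.1% of the Foxp3GFP genes past 2-fold were higher, a share that was 69.7% when libraries were scaled by the median ratio over genes. That scaling adds 0.06 to each log2 ratio in Foxp3CNS1- and 0.09 in Foxp3GFP.

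The 2 colonization comparisons share no library. Of 3420 genes measured in both, 20 were past 2-fold in the same direction (17 higher and 3 lower) and 0 in opposite directions. The intervals lay on the same side of a ratio of 1 for 130 genes and on opposite sides for 12.

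**Figure D3:**
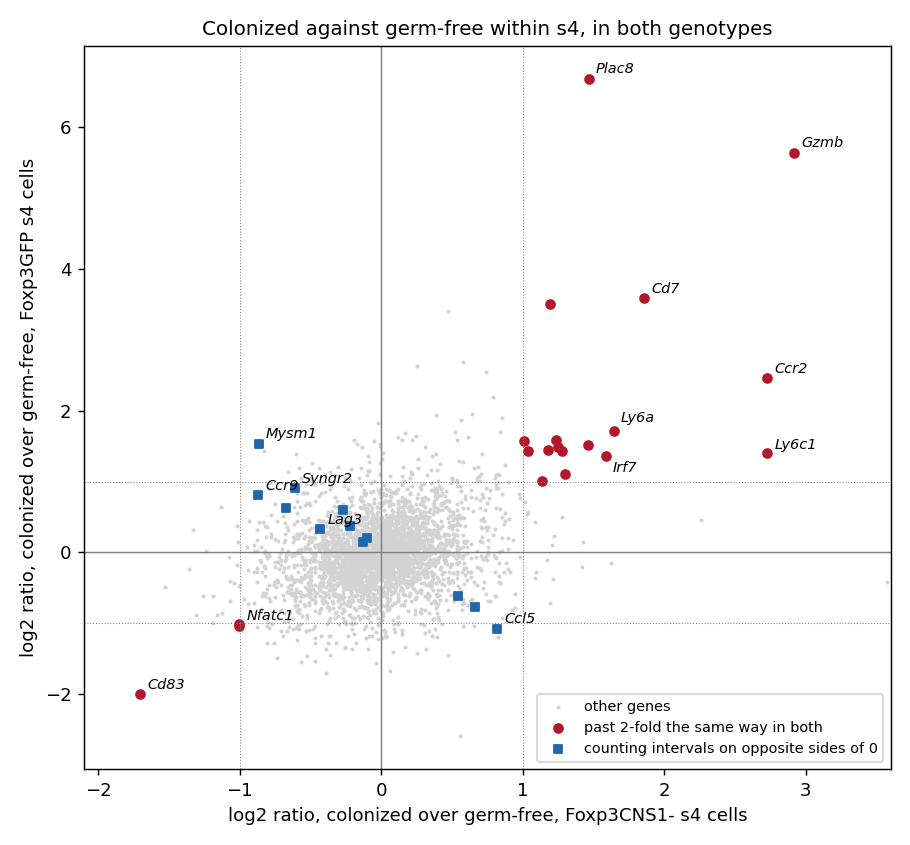
Colonization log2 ratio of each gene measured in both strains, with Foxp3CNS1- s4 cells on the horizontal axis and Foxp3GFP s4 cells on the vertical axis. The 17 genes past 2-fold higher in both lie in the upper right, with Gzmb and Plac8 highest on the vertical axis, and Cd83 lies lowest among the 3 genes past 2-fold lower in both.

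Gzmb had 292 UMIs in 58 cells of colonized and 14 UMIs in 7 cells of germ-free Foxp3CNS1- s4, a log2 ratio of 2.92 (2.15 to 3.80). It had 361 UMIs in 39 cells of colonized and 3 UMIs in 3 cells of germ-free Foxp3GFP s4, a log2 ratio of 5.64 (4.08 to 7.92). A few cells carried much of it, with 25.3% of the colonized Foxp3CNS1- and 29.9% of the colonized Foxp3GFP UMIs in 3 cells. In s4 cells of first cluster 0 only, the Gzmb ratios were 2.55 in Foxp3CNS1- and 2.70 in Foxp3GFP, and the other second-clustering cells had 5.37 and 4.65. Gzmb was thus higher in both colonized libraries inside s4 and outside it.

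Ccr2 had a colonization log2 ratio of 2.72 (1.85 to 3.75) in Foxp3CNS1- and 2.46 (1.54 to 3.55) in Foxp3GFP s4 cells, beside 3.08 and 2.76 in the other cells. Its levels in s4 are given above, and both germ-free libraries were below both colonized ones. Ly6a had 931 CPM in colonized and 298 in germ-free Foxp3CNS1- s4 cells, a log2 ratio of 1.64 (1.37 to 1.93), and 1375 in colonized and 419 in germ-free Foxp3GFP s4 cells, 1.72 (1.41 to 2.03). A Ly6a UMI was in 60.2% of s4 cells in colonized and 23.8% in germ-free Foxp3CNS1-, and in 70.4% in colonized and 34% in germ-free Foxp3GFP. The Ccr7-high cells of clusters 1 and 2 had 55.3%, 21.7%, 57.4% and 24.7% in the same order, so Ly6a was higher in the colonized libraries there too.

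Plac8, which encodes a small cysteine-rich protein of leukocytes, had 263.5 CPM in colonized and 95.3 in germ-free Foxp3CNS1- s4 cells, a log2 ratio of 1.47 (0.98 to 1.99). In Foxp3GFP s4 cells it had 443 CPM in colonized and 4.32 in germ-free, where it rests on 1 UMI, a log2 ratio of 6.68 (4.19 to 11.99). In cluster 0 cells the ratios were 0.66 in Foxp3CNS1- and 4.77 in Foxp3GFP. Cd83 was lower, with 54.8 CPM in colonized and 178 in germ-free Foxp3CNS1- s4 cells, a log2 ratio of -1.70 (-2.21 to -1.19). In Foxp3GFP s4 cells Cd83 had 41.1 CPM in colonized and 164 in germ-free, -1.996 (-2.81 to -1.21), and in the other cells the ratios were -0.95 and -1.37.

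The other genes at least 2-fold higher in both strains included interferon-stimulated and migration genes. Of the interferon-stimulated list they were Ifi27l2a (log2 ratio 1.24 in Foxp3CNS1- and 1.59 in Foxp3GFP), Irf7 (1.59 and 1.37) and Rtp4 (1.01 and 1.57). Among the migration genes were S100a4 (1.46 and 1.52) and S100a6 (1.18 and 1.44). In cluster 0 cells S100a4 was at 0.19 (-0.68 to 1.13) in Foxp3CNS1- and 1.27 in Foxp3GFP, and S100a6 at 0.65 and 1.23. Ly6c1 was at 2.73 and 1.41, with 3 UMIs in germ-free Foxp3CNS1-, and Cd7 was at 1.86 and 3.59. Sbno2, Gpr171, Phf11c, Mcm4 and Gmfg were also among the 17. Nfatc1, a calcium-regulated transcription factor, was at -1.004 in Foxp3CNS1- and -1.03 in Foxp3GFP, and Cnih4 at -1.01 in both. Cells of cluster 5 made up a larger share of s4 in the colonized libraries, as given above. Among cluster 0 cells alone, all 20 genes past 2-fold in both strains had the same sign, but 11 of the 20 were past 2-fold in Foxp3CNS1- and 17 in Foxp3GFP. Ifi27l2a (0.86), Plac8, S100a4, S100a6, Nfatc1 (-0.72) and Cnih4 (-0.88) were among those short of it in Foxp3CNS1-.

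**Figure D4:**
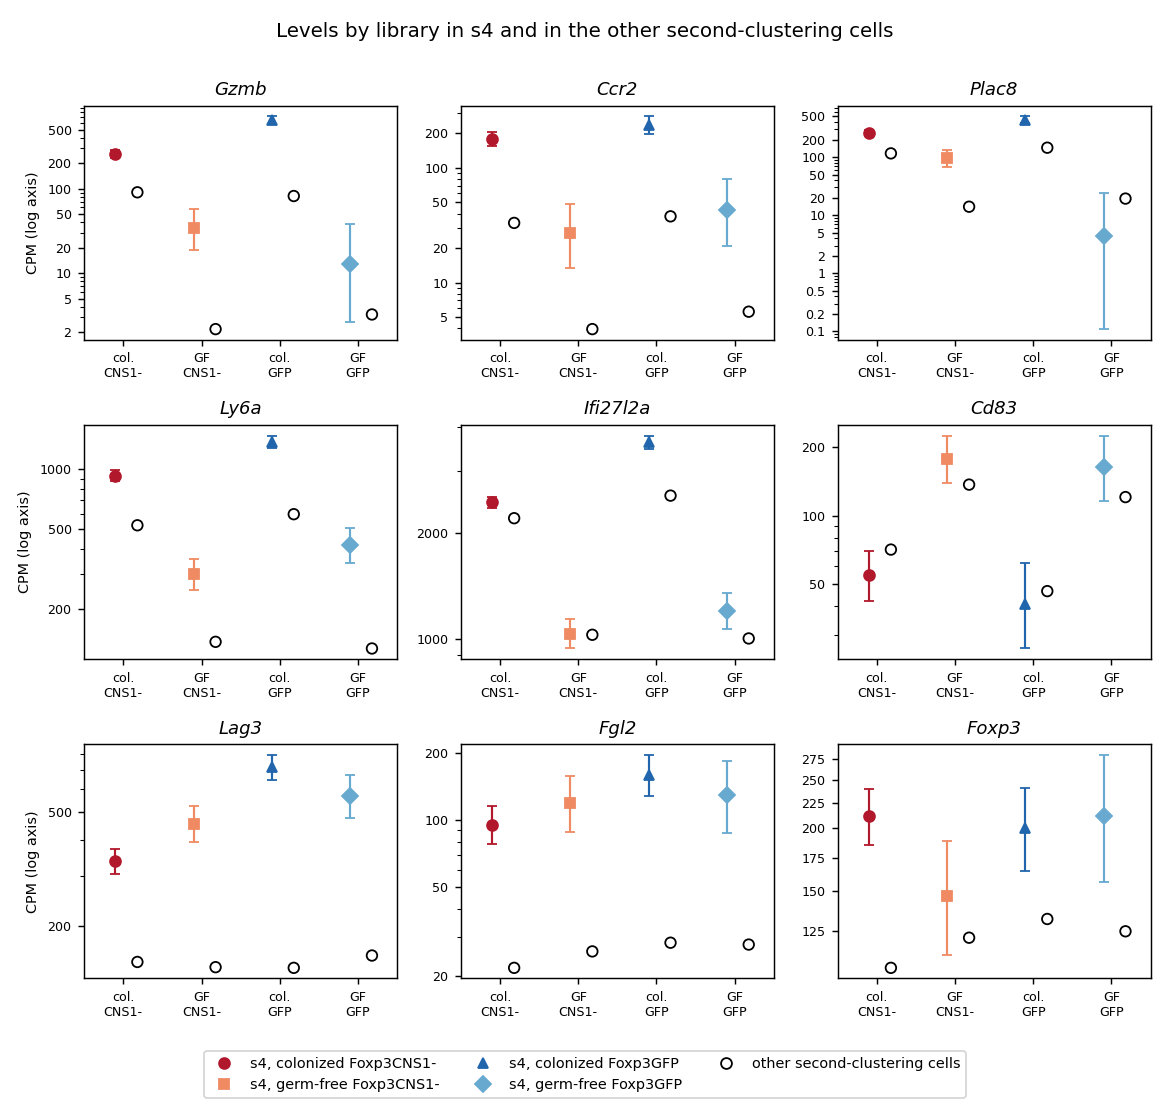
Level in CPM (log axis) of 9 genes in s4 cells of each library (filled markers, with exact 95% counting intervals) and in the other second-clustering cells of the same library (open circles). Gzmb, Ccr2, Plac8, Ly6a and Ifi27l2a are higher and Cd83 is lower in s4 cells of both colonized libraries, while Lag3, Fgl2 and Foxp3 do not follow colonization.

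Interferon-stimulated genes as a list were higher in colonized s4 cells. In Foxp3CNS1- 27 of 32 measured members were above a ratio of 1 and 5 past 2-fold, with a median of 0.63, where the median of all genes was -0.02. In Foxp3GFP it was 20 of 22, 10 past 2-fold, with a median of 0.79, beside -0.02 for all genes. The other cells of the second clustering had medians of 0.67 and 0.97 over the same genes. Ifi27l2a, a target of type I interferon, had 2451 CPM in colonized and 1039 in germ-free Foxp3CNS1- s4 cells, and 3624 in colonized and 1205 in germ-free Foxp3GFP s4 cells. Irf7, which amplifies interferon production, had 73.4 CPM in colonized and 24.4 in germ-free Foxp3CNS1- s4 cells, and 100.1 in colonized and 38.9 in germ-free Foxp3GFP s4 cells. Of the 22 list genes measured in both comparisons, 17 had a promoter window and 9 of those held GAAANNGAAA.

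The genes whose promoters are printed above did not move alike. Ifit1, whose product binds viral RNA, had 61.9 CPM in colonized and 41.5 in germ-free Foxp3CNS1- s4 cells, a log2 ratio of 0.58, and 62.6 in colonized and 25.9 in germ-free Foxp3GFP s4 cells, 1.27. Isg15, a ubiquitin-like modifier, had 218 CPM in colonized and 176 in germ-free Foxp3CNS1- s4 cells, 0.31 (-0.08 to 0.71). In Foxp3GFP s4 cells Isg15 had 266 CPM in colonized and 95.0 in germ-free, 1.49 (0.84 to 2.20). In the other cells Ifit1 was at 2.95 in Foxp3CNS1- and 2.43 in Foxp3GFP, and Isg15 at 1.74 and 1.71. The germ-free Foxp3CNS1- s4 cells had more Isg15 than the other cells of their library, 176 against 57.5 CPM, and more Ifit1, 41.5 against 10.9 CPM.

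Among lists with at least 7 measured members, none had a larger median than the interferon-stimulated list in either strain. The Th1 and cytotoxic list, with 5 measured members in Foxp3CNS1- and 4 in Foxp3GFP, Gzmb among them, had medians of 0.82 and 1.78, and 0.31 and 0.94 in cluster 0 cells. The 4 measured CD8 T and NK markers had a median of 0.65 in Foxp3CNS1- and the 2 in Foxp3GFP 1.16, and -0.04 and -0.21 in cluster 0 cells. The 2 measured plasma cell markers had 1.71 and -0.67, and 4 Th17 genes had 0.65 in Foxp3CNS1-. The part of such cells in the results was not tested. Effector and migration genes were above a ratio of 1 for 14 of 21 in Foxp3CNS1- (median 0.32) and 13 of 17 in Foxp3GFP (0.51). The other cells had medians of 0.31 and 0.45 over the same genes. In cluster 0 cells 11 of 21 (0.12) and 10 of 17 (0.32) were above it. Coinhibitory receptor genes were below it for 9 of 9 in Foxp3CNS1- (-0.40) and 5 of 7 in Foxp3GFP (-0.49), and the other cells had -0.44 and -0.37. Follicular helper genes had medians of -0.26 in Foxp3CNS1- and -0.54 in Foxp3GFP, and Tox, a factor of chronically stimulated T cells, was at -0.85 and -0.79. Mitochondrial transcripts were below a ratio of 1 for 11 of 11 and 10 of 10, with medians of -0.32 and -0.28 in s4 and -0.27 and -0.28 in the other cells. T cell identity genes were also lower, 7 of 10 and 9 of 10, with medians of -0.21 and -0.26.

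Treg genes showed no common direction under colonization. Foxp3 had a log2 ratio of 0.53 (0.11 to 0.96) in Foxp3CNS1- and -0.08 (-0.58 to 0.44) in Foxp3GFP s4 cells. Core Treg genes had 9 of 18 members above a ratio of 1 in Foxp3CNS1- with a median of -0.01, which turns positive under the median-ratio scaling, and 9 of 15 in Foxp3GFP with 0.10. Induced Treg genes had a median of -0.43 in Foxp3CNS1-, 3 of 9 above 1, and 0.33 in Foxp3GFP, 6 of 7 above 1. Suppressive effectors were at -0.35 (2 of 10) and 0.25 (7 of 8), and effector Treg genes at -0.36 (3 of 14) and 0.10 (7 of 12). Resting Treg and central genes were at 0.41 (12 of 13) and 0.22 (6 of 11). Among cluster 0 cells the induced Treg medians were -0.71 (3 of 9) and 0.74 (4 of 7), and Lag3, the gene at the median in all s4 cells, was at -0.71 and -0.91. There suppressive effectors had -0.44 and -0.04 and effector Treg genes -0.52 and -0.40, so the positive sign of both lists in Foxp3GFP was not kept. The difference between strains was not tested.

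**Figure D5:**
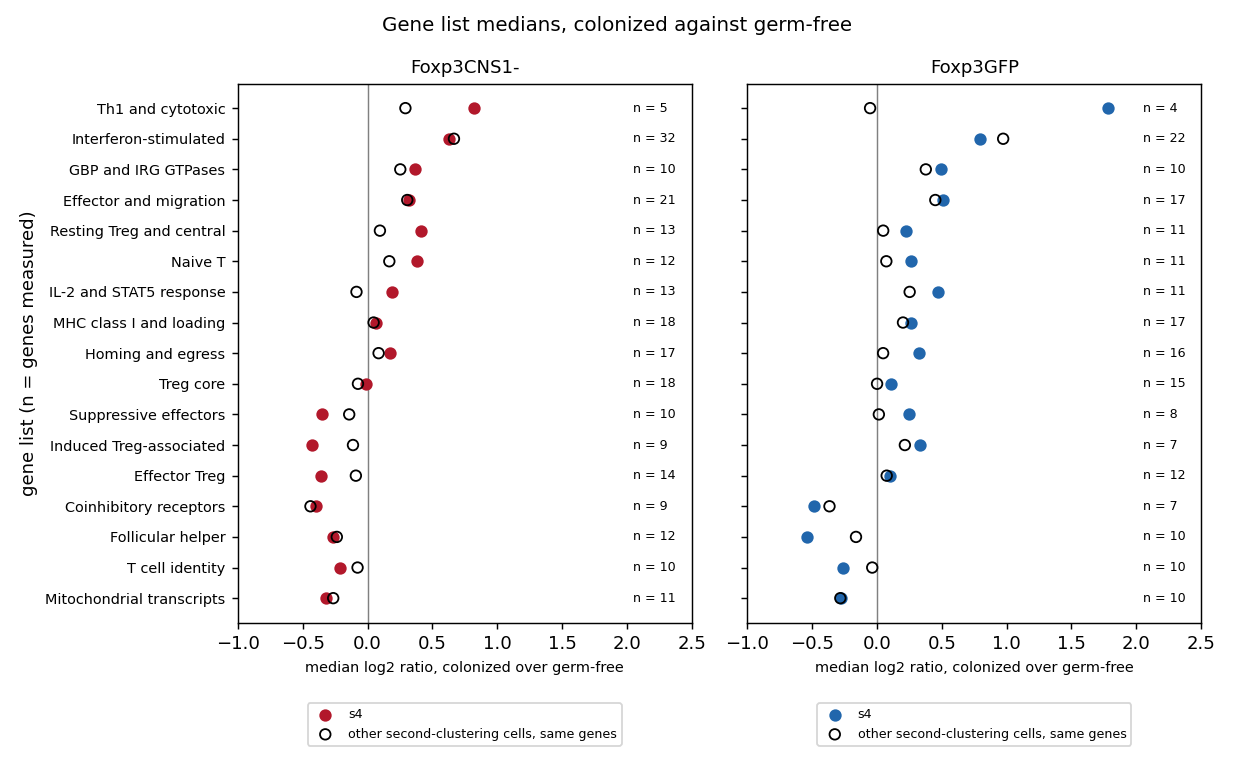
Median colonization log2 ratio of 17 gene lists in s4 cells (filled) and in the other second-clustering cells (open), with Foxp3CNS1- in the left panel and Foxp3GFP in the right. The interferon-stimulated list lies at 0.63 and 0.79 in s4, and the induced Treg list at -0.43 and 0.33, while the Th1 and cytotoxic list, with the highest medians, has few measured genes (n beside each point).

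Some genes were named in 1 strain only, which does not show a difference between strains. In Foxp3GFP Ecm1, a secreted matrix protein, had 152 CPM in colonized and 25.9 in germ-free s4 cells, 2.55 (1.37 to 4.04). Tnfsf8 (CD30 ligand) had 17.9 CPM in colonized and 108 in germ-free s4 cells, -2.59 (-3.82 to -1.49). The phosphatase gene Ptpn22, a brake on T cell receptor signalling, had 66.2 CPM in colonized and 186 in germ-free s4 cells, -1.49 (-2.16 to -0.82). Kcnn4, a calcium-gated potassium channel, was at -1.11 (-1.58 to -0.64), and Gstp3, Rsbn1, Pabpn1 and Tank were also lower, between -1.70 and -1.46. In Foxp3CNS1- Tgm2, a transglutaminase, had 30 UMIs in colonized and 0 in germ-free s4 cells. Against a floor of 3 counts in the germ-free library it was at least 3.62-fold higher by the counts alone, and the exact interval of its log2 ratio, which covers counting error in both libraries, starts at 1.47. Dnajc11 had 33 UMIs in colonized and 1 in germ-free s4 cells, a log2 ratio of 3.58 (0.999 to 8.92). Gpm6b, Mrps6, Gpcpd1, Zer1, Uvssa, Zfp950 and Mir142hg were lower, between -1.70 and -1.33.

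The second comparison set Foxp3CNS1- against Foxp3GFP s4 cells of colonized mice. It shares its libraries with the colonization comparisons. Of 5476 genes 86 (1.57%) were at least 2-fold higher in Foxp3CNS1- and 64 (1.17%) at least 2-fold lower, and 48.4% were above a ratio of 1. Gzmb was lower, 258 CPM in Foxp3CNS1- and 645.5 in Foxp3GFP, a log2 ratio of -1.32 (-1.55 to -1.10), and Lag3 was lower, 337 CPM in Foxp3CNS1- and 717 in Foxp3GFP, -1.09 (-1.30 to -0.88). The other cells had 0.15 for Gzmb and 0.07 for Lag3. Neither value was kept among s4 cells of first cluster 0 alone, where Gzmb was at 0.69, of the other sign, and Lag3 at -0.20. Which of the cells left out there made the change was not tested. Of the Lag3 UMIs in Foxp3GFP s4, 34.2% were in 3 cells.

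Ccr9 was also lower in colonized Foxp3CNS1- s4 cells. It had 70.7 CPM in Foxp3CNS1- and 159 in Foxp3GFP, -1.17 (-1.62 to -0.72), but -0.11 among cluster 0 cells. Ccl5, a chemokine of activated T cells, was higher, 207 CPM in Foxp3CNS1- and 111 in Foxp3GFP, 0.90 (0.49 to 1.33), and 1.71 among cluster 0 cells. H2-Oa, Trnt1, Rpap3, Cdk5rap1, Tnfsf8, Capn3 and Tmem176a were higher, between 2.79 and 1.59, and Vcpip1, Slc36a3os, Upf1 and Polr2l lower, between -2.02 and -1.12. Cdk5rap1 was the only one of the 7 higher genes whose ratio in the other cells, 1.96, was also past 2-fold. In colonized Foxp3GFP s4 these 7 genes rest on few UMIs, from 2 for H2-Oa and 4 for Cdk5rap1 to 10 for Tnfsf8. Of the Tnfsf8 UMIs in colonized Foxp3CNS1- s4, 47.5% were in 3 cells.

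As lists, induced Treg genes had 3 of 9 members above a ratio of 1 in the colonized strains, 3 past 2-fold lower, and a median of -0.29, beside -0.02 in the other cells. Suppressive effectors had 3 of 10 above 1 and a median of -0.36. Core Treg genes were at 0.01, with 10 of 18 above 1. Interferon-stimulated genes were at -0.15, with 9 of 32 above 1, and -0.24 in the other cells. Foxp3 was close in level, 211 CPM in colonized Foxp3CNS1- and 200.3 in colonized Foxp3GFP.

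In germ-free mice 63 of 2982 genes (2.11%) were at least 2-fold higher in Foxp3CNS1- s4 cells and 29 (0.973%) at least 2-fold lower, and 49.6% were above a ratio of 1. Lrrc32, which encodes the TGF-beta docking receptor GARP, had 171 CPM in Foxp3CNS1- and 69.1 in Foxp3GFP, 1.31 (0.51 to 2.19). Mysm1, a histone H2A deubiquitinase, had 80.6 CPM in Foxp3CNS1- and 17.3 in Foxp3GFP, 2.22 (0.73 to 4.18), and Ncoa7 was at 2.09, Clec2d at 1.33 and H2-DMa at 1.18. H2-DMa was also higher outside s4 in germ-free Foxp3CNS1- than in germ-free Foxp3GFP. The other second-clustering cells had 162 and 112 CPM in that order, and cells of first clusters 1 and 2 had 219.6 and 89.8. Tmem243 was at -1.47, Tnfsf8 at -1.56 and Traf2, an adaptor of TNF receptors, at -1.48. The lower-expressed genes of this comparison rest on few UMIs, such as 4 for Mysm1 in germ-free Foxp3GFP s4, which has 100 cells. Core Treg genes had 13 of 16 members above 1 and a median of 0.16, and coinhibitory receptors 1 of 7 and -0.32.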

How the data were processed

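Single-cell RNA was measured in CD4 T cells of 4 libraries, 1 per group. The authors deposited a table of UMI counts per gene and cell, for which the submitters' processing notes name Cell Ranger, Scanpy 1.5.1 and mm10. The sources used here do not give the version of Cell Ranger, the cell and gene filters or any removal of doublets. The deposited count table holds 17478 cells and 13314 genes, checked to be whole numbers. The authors' cell table gave library, filter and clusters for 17251 cells. The 227 cells without an entry and 303 marked as removed were left out, and 3 columns were not used.

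Counts of s4 cells were summed per library and scaled to CPM of that sum. Ratios between libraries used genes with at least 30 UMIs over both, with Clopper-Pearson intervals and a floor of 3 counts. No test was made, and some genes that the naming rule selects are not reported here. Python 3.11.15, numpy 2.4.6, scipy 1.17.1, pandas 2.3.3 and matplotlib 3.10.9 were used, and the ratios were checked on simulated data.

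Genes named are the 20 highest and 10 lowest in s4, and up to 8 per direction and comparison whose interval bound nearest to a ratio of 1 was farthest from it. Genes with 50% or more of the higher library's UMIs in 3 cells were left out of the second group, and receptor, immunoglobulin, ribosomal, mitochondrial, predicted and Y-linked genes, and Xist, of both. Other genes are examples from 32 lists, the genes past 2-fold in both strains, or those that differ most from s0, s1 and first cluster 0. The subset, the lists and the tests were chosen with earlier results of these data known. No doublet caller was run. An alternative left out s4 cells with at least 10 immunoglobulin UMIs (112 cells) or above the 98th percentile of UMIs (1 cell). Other alternatives changed the count minimum, depth, scaling, cell weights and the cells included.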

Additional observations from a re-analysis of the deposited data

Results flagged for a closer look

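Under colonization 4 named genes had ratios of opposite sign in Foxp3CNS1- and Foxp3GFP s4 cells, each with a counting interval that leaves out 0, and with 1 library per group the difference was not tested. Mysm1 had a log2 ratio of -0.87 (-1.53 to -0.19) in Foxp3CNS1-, with 44.2 CPM in colonized and 80.6 in germ-free, and 1.54 (0.02 to 3.51) in Foxp3GFP, with 50.1 CPM in colonized and 17.3 in germ-free. The germ-free Foxp3GFP level of Mysm1 rests on 4 UMIs, which also enter its ratio between strains in germ-free mice. Lag3 had -0.43 (-0.69 to -0.17) in Foxp3CNS1- and 0.33 (0.04 to 0.63) in Foxp3GFP. Ccr9 had -0.87 (-1.39 to -0.34) in Foxp3CNS1- and 0.81 (0.11 to 1.57) in Foxp3GFP, with 70.7 CPM in colonized and 129.5 in germ-free Foxp3CNS1-, and 159 in colonized and 90.7 in germ-free Foxp3GFP. Ccl5 had 0.82 (0.37 to 1.30) in Foxp3CNS1- and -1.07 (-1.62 to -0.52) in Foxp3GFP, with 207 CPM in colonized and 117 in germ-free Foxp3CNS1-, and 111 in colonized and 233 in germ-free Foxp3GFP. Of the germ-free Foxp3GFP UMIs of Ccl5, 51.9% were in 3 cells. Among s4 cells of first cluster 0 the opposite sign was lost for Lag3, -0.71 (-1.05 to -0.36) in Foxp3CNS1- and -0.91 (-1.36 to -0.47) in Foxp3GFP. It was also lost for Ccr9, -1.13 (-1.78 to -0.48) in Foxp3CNS1- and -0.43 (-1.47 to 0.64) in Foxp3GFP. It was kept for Ccl5 (0.31, with an interval of -0.21 to 0.84, and -1.89) and for Mysm1 (-0.64 and 1.47, both with intervals that include 0). These 4 are among 12 genes with intervals on opposite sides, of 3420 measured in both strains, and were taken because the text names them.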

How the results depend on the processing

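No paired analysis was possible because each group has 1 library. Counts of genes past 2-fold moved most with the minimum of UMIs. The count for colonization was 214 in Foxp3CNS1-, 17 at a minimum of 100 UMIs, 894 at 10 and 140 in cells of first cluster 0 only. In Foxp3GFP it was 205, and 18, 1011 and 112 under those settings, 112 after thinning to 1500 UMIs per cell and 125 in cells with a Foxp3 UMI. For strain in colonized mice it was 150, and 5 at a minimum of 100 UMIs, 778 at 10, 93 thinned and 96 in cells with a Foxp3 UMI. In germ-free mice it was 92, and 1, 803, 52 and 34. For s4 against the other cells it was 29, and 49 with 1 CPM added and 97 with no filter on the share of cells, and leaving out each library gave 23 to 34. Tgm2, at 0 UMIs in germ-free Foxp3CNS1-, has no ratio with equal weight per cell. Of the named genes, 641 values kept their sign and moved little, 69 moved and 3 reversed. Reversed were Gzmb for strain in colonized mice (0.69 in cluster 0 cells) and Tnfsf8 for strain in cells with a Foxp3 UMI, in colonized (-0.79) and germ-free mice (0.45). Part of the 641 was fixed in advance, since values with no filter on the share of cells are the same values. Leaving out 1 of 4 libraries cannot shift a mean past the limit used, 1 standard deviation over the libraries. In cells with a Foxp3 UMI 44 values moved little, 18 moved and 2 reversed. The causes of these changes were not tested. Depth limits genes of few UMIs, and s4 held 100 to 417 cells per library.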

Other observations

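Cells of s4 with a Foxp3 UMI numbered 147 in colonized and 45 in germ-free Foxp3CNS1-, and 79 in colonized and 38 in germ-free Foxp3GFP. A cell without one may still express the gene, and median depth was 2718 UMIs in cells with and 2299.5 in cells without in colonized Foxp3CNS1-. Pdcd1, the coinhibitory receptor PD-1, had a mean of 34.1 CPM in cells with a Foxp3 UMI and 114 CPM in cells without, lower in all 4 libraries (mean log2 ratio -1.67). Capg (0.54), Icos (0.45), Neb (0.71), Arl5a (0.73), Ncmap (0.66) and Lrrc32 (0.66) were higher in cells with a Foxp3 UMI in all 4 libraries. Ikzf2 had 768 CPM in cells with and 743 CPM in cells without (0.06), and Gzmb, Il10 and Lag3 had no common direction over the libraries. Under colonization the s4 cells with a Foxp3 UMI had Gzmb log2 ratios of 4.45 (2.57 to 7.51) in Foxp3CNS1- and 6.22 (3.72 to 11.53) in Foxp3GFP, and Ccr2 ratios of 4.93 (2.42 to 10.25) and 3.82 (1.93 to 6.89). Each rests on 1 or 2 UMIs in the germ-free library.

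Ighm transcripts were more frequent in s4 than in naive T cells. An Ighm UMI was in 80.1% of s4 cells in colonized and 84.5% in germ-free Foxp3CNS1-, and in 84.4% in colonized and 83.0% in germ-free Foxp3GFP. The cells of first clusters 1 and 2 had 46.8% to 51.3%. Ighm was not particular to s4, with a mean of 2065 CPM in s0 and 1693 in s4, and s4 was above s0 in 0 libraries. Ms4a1, a surface gene of B cells, had at most 2.65 CPM in any s4 library.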
